A study of Mus musculus with 6 samples.

Results

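The 10 genes described here govern how cells take fatty acids from circulating and stored triglyceride: lipoprotein lipase (Lpl), its secreted inhibitor Angptl4 and the related Angptl2, the lipase partners Gpihbp1 and Lmf1, the intracellular lipolysis genes Pnpla2, Abhd5, Lipe and Mgll, and the fatty acid translocase Cd36. They were taken as a named list by symbol, and all 10 were found among the 46603 genes in the count tables. Of these, 9 had enough reads to be tested, and Gpihbp1 had none. RNA was sequenced from mouse embryonic fibroblasts (MEFs, connective tissue cells grown from embryos) of strain BALB/c, taken from embryos aged 10.5 days. The wild-type group (WT, 3 libraries) has intact beta-actin, and the other group (KO, 3 libraries) carries a beta-actin knockout, per the labels. Both were grown in high-glucose DMEM with fetal bovine serum, penicillin and streptomycin, and both then spent 6 days in the same medium supplemented with insulin, dexamethasone, IBMX and ascorbic acid, which induces adipocyte differentiation. No uninduced library was analysed here, so levels before induction are not known. The labels do not say whether the 3 libraries of a group came from separate embryos, clones or cultures, and the p-values then measure only the spread between these libraries, which may be technical.

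Lipoprotein lipase is made by parenchymal cells such as adipocytes and muscle, folded in the endoplasmic reticulum with the help of LMF1, and carried by GPIHBP1 to the inner surface of capillaries, where it splits the triglyceride of lipoproteins. ANGPTL4 inactivates it, and CD36 is among the proteins that bring the released fatty acids into cells. Stored triglyceride is broken down inside the cell in sequence by adipose triglyceride lipase (Pnpla2) with its coactivator ABHD5, hormone-sensitive lipase (Lipe) and monoglyceride lipase (Mgll). In fat tissue Lpl and Angptl4 are both targets of the nuclear receptor PPAR gamma, and Angptl4 also responds to glucocorticoids and to low oxygen.

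Library totals ran from 26955708 to 38619711 counts. Actb, the gene knocked out, fell from 60501, 60582 and 53894 counts in WT replicates 1, 2 and 3 to 276, 1988 and 1850 in KO. KO replicate 1 stood apart from the other KO libraries. Its log2 profile correlated at 0.968 and 0.970 with those of KO replicates 2 and 3, against 0.992 between these and 0.989 to 0.991 within WT (Pearson's r across the tested genes, which are not independent). Of 10 fibroblast markers 9 were tested, 6 rose and 0 fell, and their summed level was 1220 to 1391 CPM (counts per 1000000 of the library's TMM-scaled total) in WT and 2760 to 2980 in KO. Levels within the list were uneven: Col1a1 had 14286 to 58276 counts in a library and Vim 16684 to 39965, while Col1a2 had 6 to 13, Lum 2 to 20 and Thy1 0 to 1 in WT, and Fap had 0 to 6 throughout. Of 10 adipocyte markers only 4 had counts enough to test. Pparg, which encodes PPAR gamma, rose by 0.73 log2 (adjusted p = 0.0205 in edgeR), from 16.0 ± 2.42 to 26.6 ± 4.18 CPM, and Cebpa, its partner factor in adipocytes, fell by 4.20 log2 (adjusted p = 0.000813 in edgeR), from 5.59 ± 0.37 to 0.289 ± 0.186 CPM. Fabp4 and Slc2a4 were not called. Adipoq had 1 count in all 6 libraries together, Plin1 had 1 to 3 in each and Lep had 0. The summed level of this list was 33.2 to 42.3 CPM in WT and 46.8 to 149.2 in KO, where the highest sum, in KO replicate 1, held 109.4 CPM of Fabp4. In bulk RNA, fewer cells of a type and less RNA per cell cannot be told apart.

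Between KO and WT, 2 of the 9 tested genes rose (Lpl and Cd36), 3 fell (Angptl4, Lipe and Abhd5) and 4 were not called (Angptl2, Lmf1, Pnpla2 and Mgll). A gene was called at a Benjamini-Hochberg adjusted p below 0.05 in edgeR's quasi-likelihood F test over all 15009 tested genes. Of those genes 28.3% were called, 13.8% higher and 14.5% lower in KO. In 6 of the 9 genes, KO and WT libraries did not overlap in CPM, against 49.6% of all tested genes. The median log2 fold change of the 9 genes was -0.59, beside 0.01 over all tested genes. Without KO replicate 1, 3 genes were higher and 4 lower, with Angptl2 and Pnpla2 added. Calls rose over the whole table too in that fit, to 6537 of 15453 tested genes from 4255 of 15009.

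**Figure D1:**
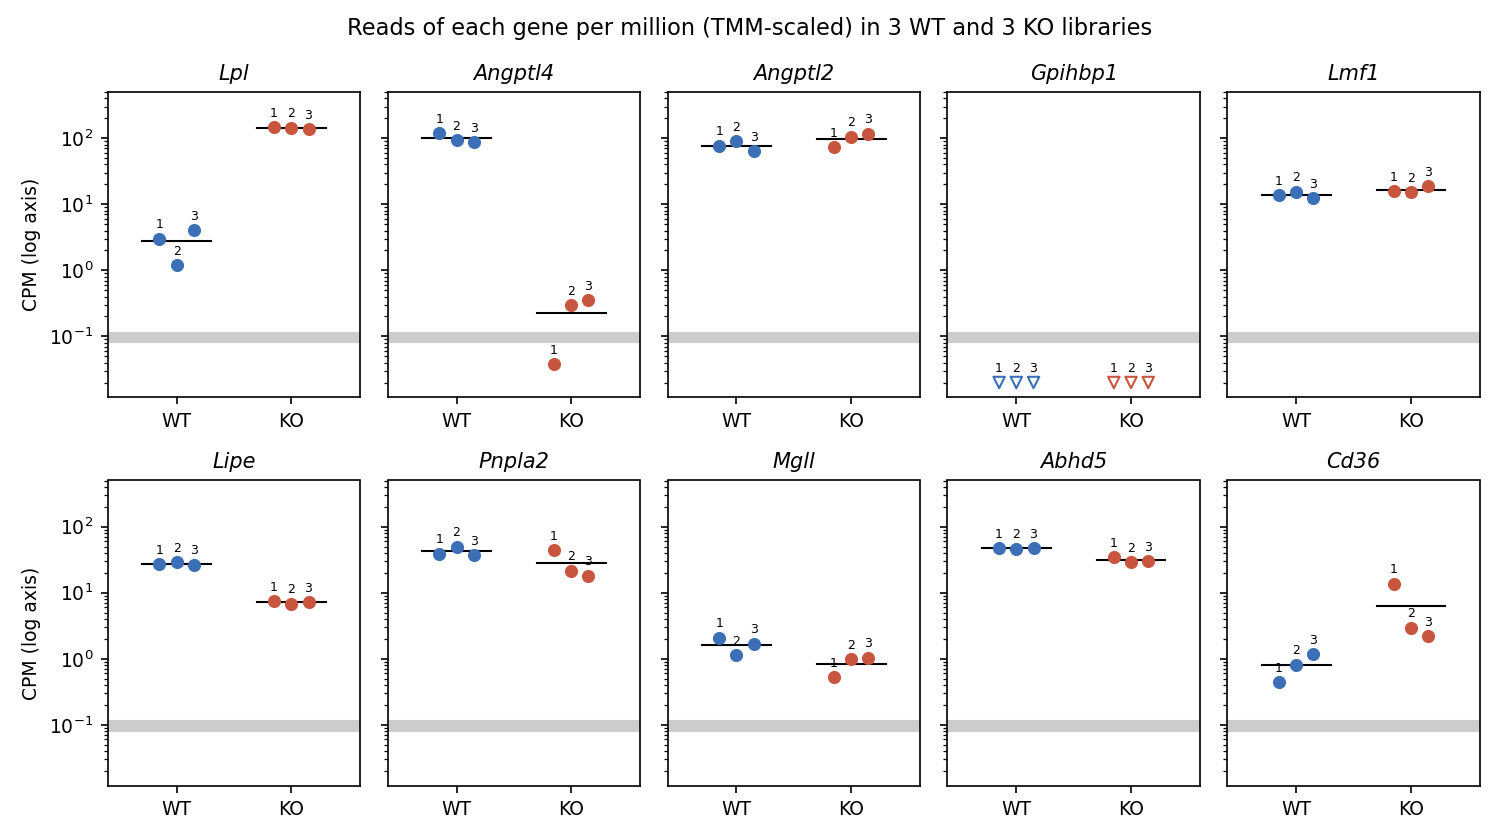
CPM on a log axis (TMM-scaled libraries) for each gene in 3 WT (blue) and 3 KO (red) libraries, with the replicate number above each point, the group mean as a black line, and open triangles for 0 counts. The grey band is the level of 3 counts, 0.0816 to 0.113 CPM by library. Lpl and Angptl4 separate the groups in opposite directions, and KO replicate 1 lies apart for Cd36 and Pnpla2.

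Lpl (ENSMUSG00000015568, GRCm38 chromosome 8, 68880491 to 68907448, plus strand) had 95, 38 and 120 counts in WT replicates 1, 2 and 3 and 3880, 4866 and 5025 in KO. These are 2.99, 1.19 and 4.05 CPM in WT and 145.7, 144.3 and 136.7 CPM in KO. The KO libraries were nearly level, WT replicate 2 was the lowest, and the groups were far apart. Lpl rose by 5.70 on the log2 scale (SE 0.51, n = 3 per group, adjusted p = 0.000124 in edgeR), 51.9-fold, from 2.74 ± 1.44 to 142.2 ± 4.86 CPM (mean ± SD). Standard errors here are those of the difference between group means of log2 CPM with 2 counts added. Only 68 of the 15009 tested genes had a larger log2 fold change.

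Angptl4 (ENSMUSG00000002289, chromosome 17, 33773750 to 33781830, minus strand), the secreted inhibitor, went the other way. It had 3805, 2959 and 2593 counts in WT replicates 1, 2 and 3 and 1, 10 and 13 in KO, or 119.6, 92.99 and 87.56 CPM against 0.0376, 0.297 and 0.354 CPM. All WT libraries were high, and KO replicate 1 lay under the level of 3 counts that a count of 0 allows. Angptl4 fell by 8.66 log2 (SE 0.60, adjusted p = 3.23e-05 in edgeR), a 403.8-fold difference, and 24 tested genes had a lower log2 fold change.

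The ratio of Lpl to Angptl4 reads per kilobase of exon, with counts under 3 set to 3, joins both genes in a single value per library. In WT replicates 1, 2 and 3 Angptl4 exceeded Lpl 118.5, 230.4 and 63.9 times. In KO Lpl exceeded Angptl4 437.1, 164.4 and 130.6 times, the first with an Angptl4 count of 1 set to 3. These sizes depend on the length used, here merged exons of 10478 bases for Lpl and 3541 for Angptl4. With the longest transcripts (4115 and 3308 bases) Lpl would stand higher relative to Angptl4 in every library. The difference between the groups would stay the same. The mean log2 ratio was -6.91 ± 0.93 in WT and 7.72 ± 0.93 in KO (SD, n = 3), a difference of 14.63 (SE 0.76). The exact two-sided permutation test over the libraries gave p = 0.1, the smallest that 3 against 3 allows. Each gene alone separates the groups, in opposite directions, so the ratio had to give this p. The test therefore adds nothing to the results of the 2 genes.

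Angptl2 (ENSMUSG00000004105, chromosome 2, 33216069 to 33247717, plus strand) encodes a secreted relative of ANGPTL4 known for roles in inflammation. Its CPM was 76.9, 90.5 and 63.7 in WT replicates 1, 2 and 3 and 73.7, 105.0 and 117.3 in KO. The groups overlapped through KO replicate 1, and the log2 fold change of 0.36 (SE 0.25) was not called (adjusted p = 0.222 in edgeR). Without KO replicate 1 it was 0.53 and was called (adjusted p = 0.0189 in edgeR). Of the other angiopoietin-like genes, Angptl6 fell by 1.86 log2 (SE 0.21, adjusted p = 0.000959 in edgeR), from 18.9 ± 1.98 to 5.22 ± 1.27 CPM. Angptl7 was not called (24 to 63 counts in WT, 8 to 44 in KO), though without KO replicate 1 this list had 2 lower genes. Angptl8 had 2 to 8 counts in a library and Angptl1 had 0 to 5, too few to test.

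**Figure D2:**
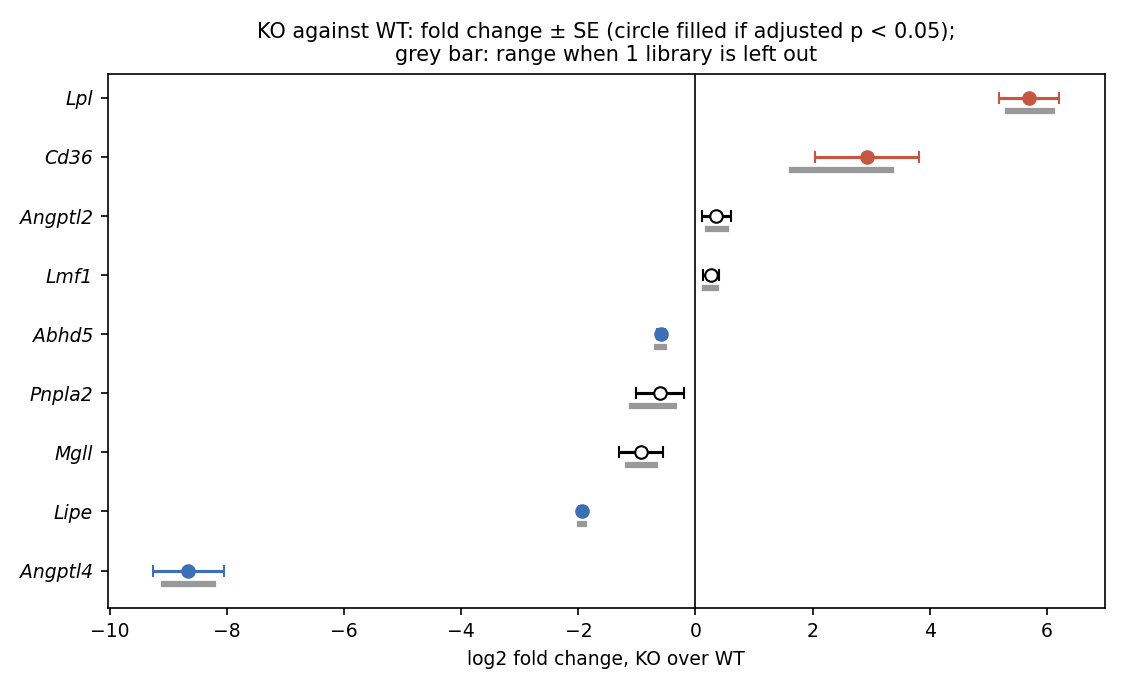
Log2 fold change of KO over WT for the 9 tested genes, with bars of ± 1 SE and filled circles for an adjusted p below 0.05 (red higher, blue lower in KO). Grey bars span the values with 1 library left out. Angptl4 lies at -8.66 and Lpl at 5.70, and the grey bar of Cd36 reaches from 1.65 to 3.35.

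Gpihbp1 (ENSMUSG00000022579, chromosome 15, 75596628 to 75599481), the capillary carrier of the lipase, had 0 counts in all 6 libraries, which at 3 counts allows up to 0.0816 to 0.113 CPM by library (counting error only). It is an endothelial gene. Endothelial markers were near the floor as a whole, with a summed level of 3.62 to 5.07 CPM in WT and 2.37 to 3.79 in KO over 10 markers, of which Cldn5 had 0 counts and Vwf was the only called gene (1 lower of 5 tested). Lmf1 (ENSMUSG00000002279, chromosome 17, 25579085 to 25662826), the maturation factor, had 13.6, 15.4 and 12.3 CPM in WT replicates 1, 2 and 3 and 15.8, 15.2 and 18.7 in KO. Its groups overlapped, and its log2 fold change of 0.27 (SE 0.13) was not called (adjusted p = 0.26 in edgeR).

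Other partners of lipoprotein lipase were taken from a list of 21 genes for its folding, trafficking, cofactors, processing and surface binding. Of these 15 were tested, and 4 rose, 0 fell and 11 had no call, with a median log2 fold change of 0.25 beside 0.01 over all tested genes. The 26.7% called in this list was near the 28.3% over all tested genes. Without KO replicate 1, 3 genes were lower, and without WT replicate 2, KO replicate 2 or KO replicate 3, 1 was. The 4 that rose were Glce and Sdc4, which make and carry the heparan sulfate that binds the lipase, and the proprotein convertases Furin and Pcsk6. Glce rose by 0.60 log2 (SE 0.05, adjusted p = 0.00433 in edgeR), from 96.9 ± 5.57 to 146.7 ± 2.45 CPM. Sdc4 rose by 1.12 log2 (SE 0.33, adjusted p = 0.0166 in edgeR), from 208.5 ± 11.0 to 452.4 ± 170.8 CPM, and was no longer called when WT replicate 1, 2 or 3 was left out (adjusted p = 0.0591, 0.0686 and 0.0706 in edgeR). The number of higher genes was 2 without WT replicate 3 and 7 without KO replicate 2. The lipase cofactor Apoc2 had 3 counts in all, in KO replicate 3, and the inhibitor Apoc3 had 0.

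Inside the cell, the lipolysis genes were lower or not called in KO. Lipe (ENSMUSG00000003123, chromosome 7, 25379527 to 25398710, minus strand) had 853, 920 and 784 counts in WT replicates 1, 2 and 3 and 198, 229 and 264 in KO. Its CPM of 26.8, 28.9 and 26.5 in WT and 7.44, 6.79 and 7.18 in KO shows tight groups that did not overlap. The RNA of Lipe, which encodes hormone-sensitive lipase, fell by 1.94 log2 (SE 0.06, adjusted p = 0.000137 in edgeR), 3.84-fold, from 27.4 ± 1.32 to 7.14 ± 0.33 CPM.

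Abhd5 (ENSMUSG00000032540, chromosome 9, 122351608 to 122381524, plus strand), the coactivator of adipose triglyceride lipase, fell by less. It had 46.99, 46.4 and 47.2 CPM in WT replicates 1, 2 and 3 and 34.2, 28.9 and 30.3 in KO. The groups did not overlap, KO replicate 1 was the highest of the KO libraries, and the gene fell by 0.59 log2 (SE 0.07, adjusted p = 0.0084 in edgeR), from 46.9 ± 0.42 to 31.1 ± 2.76 CPM. Exons of an antisense gene cover 15.6% of the exon bases of Lipe and 16% of those of Abhd5. The library kit does not mark strand, and these antisense genes had 0 to 4 and 0 to 2 counts in a library. How reads in shared exons were counted is not known. These low counts therefore do not show whether the overlap affected Lipe or Abhd5.

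Pnpla2 (ENSMUSG00000025509, chromosome 7, 141455198 to 141460743, plus strand), adipose triglyceride lipase, had 39.1, 50.0 and 37.4 CPM in WT replicates 1, 2 and 3 and 43.7, 21.6 and 18.1 in KO. KO replicate 1 lay within the WT range while KO replicates 2 and 3 lay below it. The log2 fold change of -0.60 (SE 0.41) was not called (adjusted p = 0.2 in edgeR), and without KO replicate 1 it was -1.08 and was called (adjusted p = 0.00108 in edgeR). Mgll (ENSMUSG00000033174, chromosome 6, 88724412 to 88828360), the last enzyme of the sequence, was scarce, with 66, 36 and 50 counts in WT against 14, 33 and 38 in KO. Its groups did not overlap in CPM (1.13 to 2.07 in WT, 0.526 to 1.03 in KO), but its log2 fold change of -0.93 (SE 0.37) was not called (adjusted p = 0.102 in edgeR).

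RefSeq promoter sequences (build GRCm38.p6) matched 7 of the 10 genes, and Lpl, Angptl4 and Gpihbp1 had no entry. The 250 bases before the start are shown for the 3 largest lipolysis genes by level, which share a pathway and were lower or not called, and later for Cd36, which rose. Both strands were searched for 7 motifs, and matches are in capitals: the nuclear receptor core AGGTCA (in 14% of 32851 promoters of the same length), the glucocorticoid receptor core TGTTCT (16.1%), the hypoxia core ACGTG (16.6%), CCAAT (33.8%), the GC box GGGCGG (32.7%), TATAAA (12.4%) and the CArG box bound by SRF (1.47%). Lipe is shown at the downstream of its 2 RefSeq starts (chr7:25390113-25390362, minus strand), Abhd5 at chr9:122351366-122351615 and Pnpla2 at chr7:141454938-141455187, both on the plus strand, all 5′ to 3′.
Lipe: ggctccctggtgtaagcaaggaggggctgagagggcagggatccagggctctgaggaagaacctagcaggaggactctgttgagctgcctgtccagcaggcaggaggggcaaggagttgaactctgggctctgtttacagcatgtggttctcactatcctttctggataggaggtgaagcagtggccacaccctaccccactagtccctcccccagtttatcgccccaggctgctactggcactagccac
Abhd5: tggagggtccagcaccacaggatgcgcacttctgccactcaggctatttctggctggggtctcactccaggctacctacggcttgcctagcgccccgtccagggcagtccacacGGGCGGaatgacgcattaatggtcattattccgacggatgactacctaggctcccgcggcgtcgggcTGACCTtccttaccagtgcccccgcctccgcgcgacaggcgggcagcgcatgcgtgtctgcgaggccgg
Pnpla2: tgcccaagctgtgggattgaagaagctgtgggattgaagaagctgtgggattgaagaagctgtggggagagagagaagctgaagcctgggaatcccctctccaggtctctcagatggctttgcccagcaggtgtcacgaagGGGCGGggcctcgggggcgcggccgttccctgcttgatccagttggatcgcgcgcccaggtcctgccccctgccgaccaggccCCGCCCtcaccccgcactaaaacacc
The Lipe window shown held none of the 7 motifs and 1 CpG. All 250 bases before its upstream start lie in annotated untranslated (UTR) sequence, so that window is not shown. It held 6 GC boxes, 2 hypoxia cores that overlap (the letters read on both strands) and 18 CpG. Abhd5 had a nuclear receptor core that begins 69 bases and a GC box that begins 136 bases before the start, with 22 CpG. Pnpla2 had GC boxes that begin 109 and 26 bases before the start and 12 CpG. No matches overlapped in the windows shown, and a match is a description of the letters, not a binding site.

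Beyond the members, 22 other lipase genes were listed and 17 tested: 4 genes rose, 2 fell and the other 11 had no call (median log2 fold change -0.20). The share called was 35.3%, against 28.3% over all tested genes. Ces1d, a carboxylesterase that hydrolyses triglyceride in liver and fat, had 0, 1 and 3 counts in WT replicates 1, 2 and 3 and 952, 513 and 504 in KO. It rose by 8.84 log2 (SE 0.60, adjusted p = 0.000252 in edgeR), a value that rests on WT counts at or under 3 and was 10.1 without WT replicate 3. Lipa, the lysosomal acid lipase, rose by 0.96 log2 (SE 0.11, adjusted p = 0.00163 in edgeR), from 145.0 ± 5.02 to 282.1 ± 36.4 CPM. The other higher genes were Lipg, endothelial lipase, and Ces1f. Pnpla3 fell by 1.98 log2 (SE 0.30, adjusted p = 0.0136 in edgeR), from 15 to 24 counts in WT to 2 to 7 in KO, and the diacylglycerol lipase Daglb fell by 0.68 log2 (SE 0.13, adjusted p = 0.0137 in edgeR). The Pnpla3 call was not kept when WT replicate 1 was left out (adjusted p = 0.058 in edgeR). That of Daglb was not kept without WT replicate 1 (0.0553) or 2 (0.0635). Without WT replicate 1 the list had 0 lower genes, without WT replicate 2 it had 1, and without KO replicate 1 or with library totals it had 7.

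Genes that control lipolysis, from hormone receptors to lipid droplet proteins, went both ways. Of 33 listed 27 were tested, and 8 rose, 5 fell and 14 had no call, with a median log2 fold change of 0.07. That is 48.15% called, against 28.3% over all tested genes. Pde4d, a phosphodiesterase that breaks down cAMP, rose by 1.04 log2 (SE 0.07, adjusted p = 0.000774 in edgeR), from 28.7 ± 1.32 to 59.1 ± 4.15 CPM. Prkar2b, the regulatory subunit of protein kinase A in fat, rose by 1.03 log2 (SE 0.11, adjusted p = 0.00104 in edgeR), from 62.9 ± 1.14 to 128.7 ± 16.6 CPM. Also higher were Gnai1, Gnai3, Prkacb, Pde3b, Hilpda, which encodes an inhibitor of adipose triglyceride lipase, and the droplet protein gene Plin4. Among listed receptors that restrain lipolysis in fat cells, Hcar2 and Ptger3 fell. Adora1 was not called (19 to 25 counts in WT, 4 to 18 in KO) and Hcar1 had too few counts to test (0 to 2). The insulin receptor gene Insr, also of this kind, leaned the other way, with 1583 to 1930 counts in WT and 2286 to 3041 in KO. Its log2 fold change of 0.65 was not called (adjusted p = 0.0545 in edgeR). Hcar2 went from 31, 38 and 17 counts in WT replicates 1, 2 and 3 to 2, 3 and 1 in KO (log2 fold change -3.80, adjusted p = 0.0021 in edgeR). Ptger3 went from 107, 14 and 39 counts in WT to 2, 3 and 0 in KO (log2 fold change -4.93, adjusted p = 0.0105 in edgeR). Its value was -3.98 without WT replicate 1, -5.56 without KO replicate 2 and -4.30 without KO replicate 3. Adrb3, Plin5 and Faf2 fell as well. G0s2, another inhibitor of adipose triglyceride lipase, had 3 to 6 counts in a library and was not tested. The list had 5 and 4 higher genes without WT replicates 1 and 2, 3, 2 and 3 lower genes without WT replicates 1, 2 and 3, and 8 lower without KO replicate 1.

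Cd36 (ENSMUSG00000002944, chromosome 5, 17781690 to 17888801, minus strand) had 14, 26 and 35 counts in WT replicates 1, 2 and 3 and 362, 99 and 80 in KO, or 0.44, 0.817 and 1.18 CPM against 13.6, 2.94 and 2.18. All KO libraries lay above WT, and KO replicate 1 was several times the others. Cd36 rose by 2.93 log2 (SE 0.90, adjusted p = 0.0269 in edgeR), 7.62-fold, from 0.813 ± 0.371 to 6.24 ± 6.39 CPM. Without KO replicate 1 the rise was 1.65 log2, or 3.15-fold (adjusted p = 0.0103 in edgeR). The call was lost without WT replicates 1, 2 or 3 (adjusted p = 0.104, 0.0953 and 0.07 in edgeR) and with limma-voom (adjusted p = 0.0597). Fabp4, a fatty acid binding protein of adipocytes and macrophages, was also highest in KO replicate 1, with 2914 counts against 290 and 597 in the other KO libraries and 152 to 304 in WT, and its part in the Cd36 result was not tested. Macrophages express both Cd36 and Lpl. Of 12 macrophage markers 5 were tested, 2 rose and 0 fell. Their summed level was 19.1 to 37.2 CPM in WT and 26.7 to 39.9 in KO. Cd14 and Cd68, which made up most of that sum, were not called (321 to 675 and 198 to 601 counts in WT, 203 to 1022 and 72 to 388 in KO). Ptprc and Marco had 0 counts in each WT library and at most 1 in a KO library, Adgre1 and Itgam at most 1 in any library, and Csf1r 2 to 8. The markers that rose were the scavenger receptors Msr1 (0 counts in each WT library, 89, 122 and 241 in KO replicates 1, 2 and 3) and Cd163 (0, 0 and 1 against 50, 46 and 79).

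The Cd36 promoter window (chr5:17835897-17836146, minus strand, 5′ to 3′) is shown with the same motifs in capitals.
Cd36: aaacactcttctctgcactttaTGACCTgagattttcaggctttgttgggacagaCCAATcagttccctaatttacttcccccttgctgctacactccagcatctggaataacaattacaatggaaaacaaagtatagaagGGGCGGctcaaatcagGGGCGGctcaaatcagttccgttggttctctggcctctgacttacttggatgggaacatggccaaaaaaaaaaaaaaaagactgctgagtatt
It held a nuclear receptor core that begins 228 bases before the start, a CCAAT box at 195, and GC boxes at 109 and 93. It had 3 CpG and 43.2% G and C, against 58.8% to 64.8% in the Lipe, Abhd5 and Pnpla2 windows.

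Other genes of fatty acid uptake and activation numbered 19, and 15 were tested. Among these 5 rose, 2 fell and 8 had no call (46.7% called beside 28.3% over all tested genes, median log2 fold change 0.07). Cav1, the caveolar scaffold, rose by 1.79 log2 (SE 0.28, adjusted p = 0.00156 in edgeR), from 79.4 ± 2.76 to 275.1 ± 95.1 CPM. Acsl3, an acyl-CoA synthetase of lipid droplets, rose by 0.91 log2 (SE 0.16, adjusted p = 0.00412 in edgeR), and the others that rose were Acsl1, Acsl4 and Fabp5. Slc27a3, an acyl-CoA synthetase of the fatty acid transport family, fell by 3.48 log2 (SE 0.27, adjusted p = 0.000159 in edgeR), from 29.2 ± 6.58 to 2.60 ± 0.57 CPM. Acsl6 fell by 4.39 log2 (SE 0.42, adjusted p = 0.000565 in edgeR), from 5.16 ± 1.32 to 0.234 ± 0.136 CPM. The number of higher genes was 3, 2 and 3 without WT replicates 1, 2 and 3. Of 7 tested lipoprotein receptors and CD36 relatives 3 rose by small amounts and 0 fell, among them Lrp1 by 0.75 log2 (SE 0.22, adjusted p = 0.0244 in edgeR) and Vldlr by 0.46 (SE 0.12, adjusted p = 0.0348 in edgeR). With library totals that count was 0. Leaving out WT replicate 1 or 2 or KO replicate 3 also gave 0, and leaving out WT replicate 3 gave 1. Without KO replicate 1, 1 gene of that list was lower. With all libraries, 42.9% of the list's tested genes were called.

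**Figure D3:**
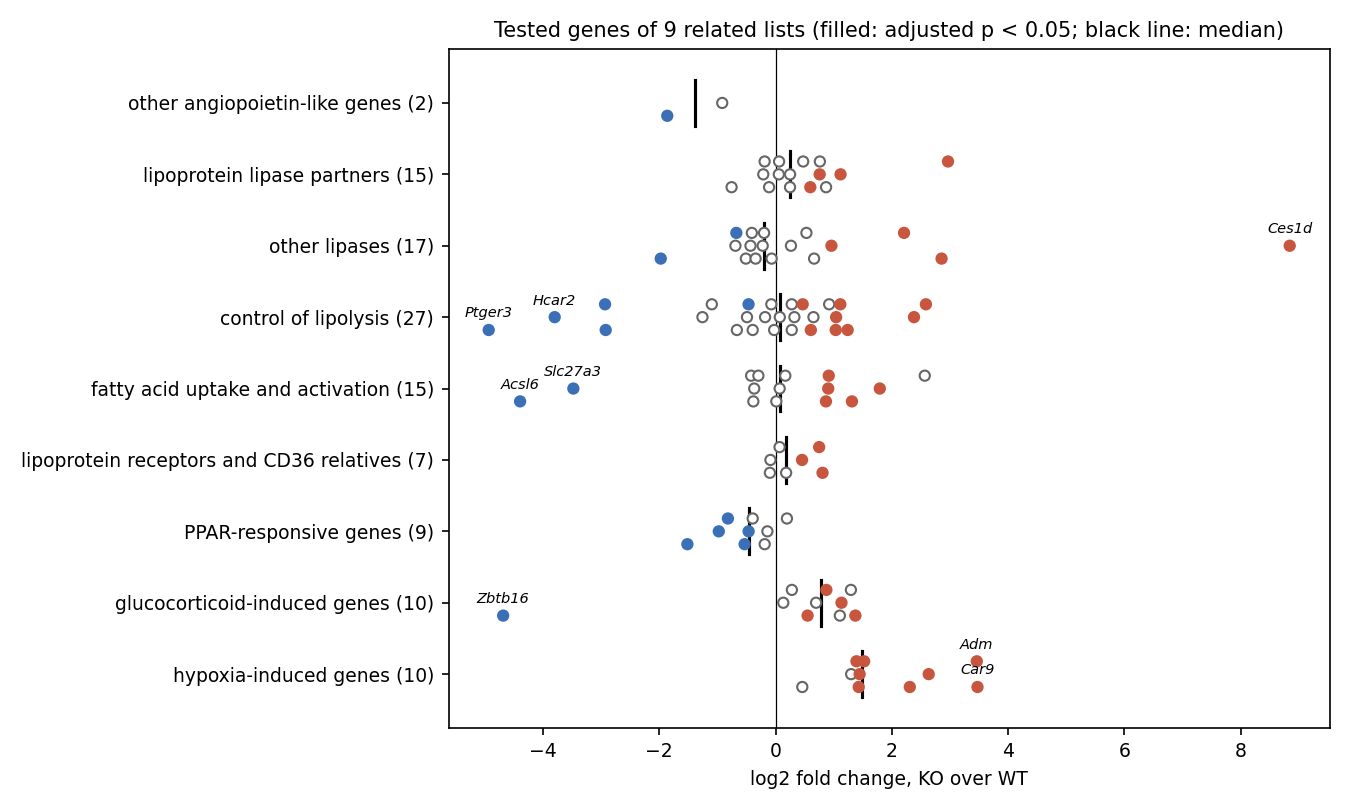
Log2 fold change of KO over WT for each tested gene of the 9 related lists, with the number tested in brackets, filled circles for an adjusted p below 0.05 (red higher, blue lower in KO) and a black line at each list's median. Ces1d lies farthest right at 8.84, and the hypoxia-induced genes have the highest median, 1.48.

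Levels of different genes were compared per length, as CPM per kilobase of merged exons (RPKM). In WT the order of mean levels ran Angptl4 (28.3 ± 4.84 RPKM), Pnpla2 (13.9 ± 2.27), Angptl2 (12.3 ± 2.13), Abhd5 (7.87 ± 0.071), Lipe (4.66 ± 0.22), Lmf1 (1.01 ± 0.11), Mgll (0.321 ± 0.093), Lpl (0.262 ± 0.138) and Cd36 (0.227 ± 0.103). The WT ranges of Pnpla2 and Angptl2 overlapped, as did those of Mgll, Lpl and Cd36 with their neighbours. In KO the order ran Angptl2 (15.7 ± 3.58 RPKM), Lpl (13.6 ± 0.46), Pnpla2 (9.21 ± 4.59), Abhd5 (5.22 ± 0.46), Cd36 (1.74 ± 1.78), Lmf1 (1.22 ± 0.14), Lipe (1.21 ± 0.055), Mgll (0.167 ± 0.055) and Angptl4 (0.0647 ± 0.0476). Neighbours overlapped from Angptl2 through Pnpla2 and from Cd36 through Lipe. Lpl thus moved from rank 8 of 9 to rank 2, and Angptl4 from rank 1 to rank 9. With the longest transcript in place of merged exons (4115 in place of 10478 bases for Lpl), Lpl ranked 7 in WT and 1 in KO.

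**Figure D4:**
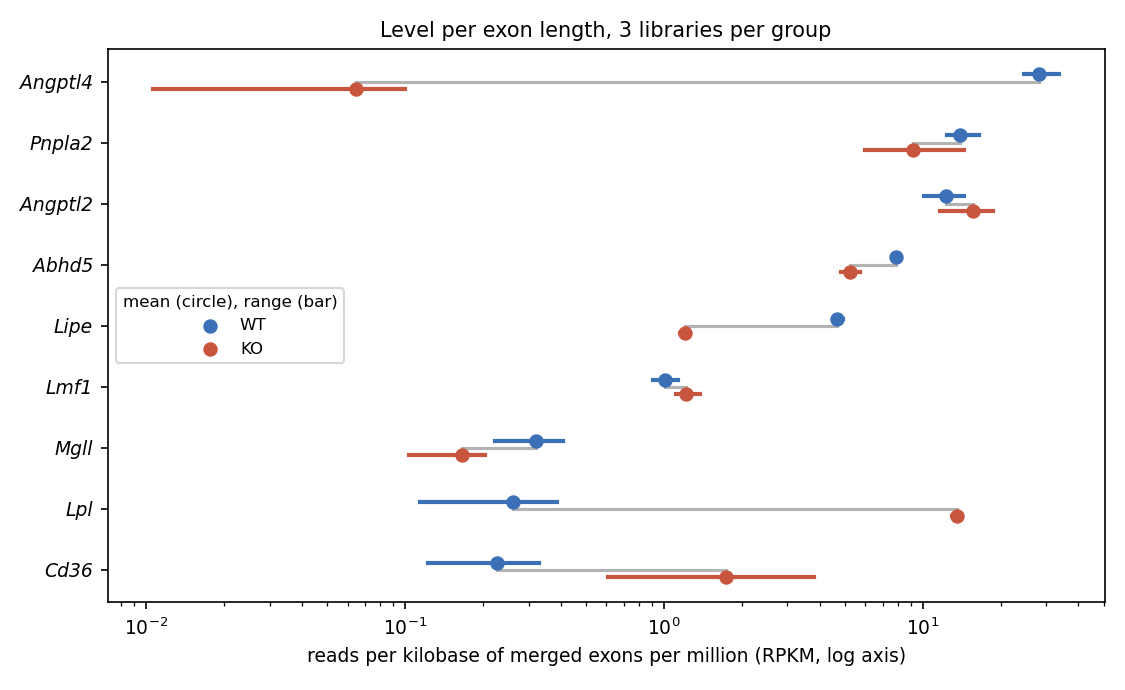
Mean RPKM (circle) and range over 3 libraries (coloured bar) in WT (blue) and KO (red) on a log axis, in the WT order of levels, with a grey line joining the means. The lines of Angptl4 and Lpl are the longest and run in opposite directions.

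Because Angptl4 is a known target of PPARs, of the glucocorticoid receptor and of hypoxia-inducible factors, 3 lists of genes induced by these were counted. Of 9 tested PPAR-responsive genes 5 fell, 0 rose and 4 were not called (median log2 fold change -0.46). Among them Ech1, a peroxisomal and mitochondrial enoyl-CoA isomerase, fell by 1.52 log2 (SE 0.20, adjusted p = 0.000976 in edgeR), from 109.9 ± 23.1 to 38.4 ± 4.05 CPM. Cpt1a, which admits fatty acids to mitochondria, fell by 0.98 log2 (SE 0.14, adjusted p = 0.00218 in edgeR), and Acadvl, Slc25a20 and Acaa2 fell too. Pdk4 was not called (102.7 ± 6.52 CPM in WT and 117.7 ± 65.5 in KO). The lower genes were 2 when WT replicate 1 or 2 was left out and 3 when KO replicate 3 was. In this list 55.6% of tested genes were called, against 28.3% over all tested genes. Lpl and Angptl4, both given above as PPAR gamma targets, were not in it, and rose by 5.70 and fell by 8.66 log2. The counts hold for the listed genes only.

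Of 10 glucocorticoid-induced genes 4 rose, 1 fell and 5 were not called (50% called beside 28.3% over all tested genes, median 0.78). Tsc22d3, which encodes GILZ, rose by 0.87 log2 (SE 0.25, adjusted p = 0.0162 in edgeR) and the clock gene Per1 by 0.55 (SE 0.17, adjusted p = 0.0353 in edgeR), with Sgk1 and Klf9. None of the 4 was called without WT replicate 1, 2 or 3, where the list had 0 higher genes in each case, and with library totals the list had 1. Zbtb16, for the zinc finger factor PLZF, fell by 4.69 log2 (SE 0.69, adjusted p = 0.0013 in edgeR), from 526, 400 and 732 counts in WT replicates 1, 2 and 3 to 9, 47 and 12 in KO, and by 5.74 without KO replicate 2. Fkbp5 was not called, at 190.9 ± 6.76 and 231.8 ± 71.5 CPM.

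The hypoxia-induced list had 8 of 10 genes higher and 0 lower (median 1.48), and 6 to 10 higher under each of the 14 other settings. Its called share was 80%, against 28.3% over all tested genes. Bnip3, a mitophagy receptor, rose by 2.63 log2 (SE 0.34, adjusted p = 0.000675 in edgeR), from 55.1 ± 7.18 to 342.1 ± 126.1 CPM. Egln3, an oxygen sensor that is itself induced, rose by 1.52 log2 (SE 0.12, adjusted p = 0.000403 in edgeR), from 16.0 ± 2.11 to 45.9 ± 3.04 CPM. Over the union of the 9 lists, 111 of 138 genes were tested. Of these 36 rose, 16 fell and 59 had no call (46.8% called beside 28.3% over all tested genes, median log2 fold change 0.25). The higher genes numbered 20, 18 and 22 without WT replicates 1, 2 and 3, and the lower genes 9 and 10 without WT replicates 1 and 2, 30 without KO replicate 1 and 27 with library totals.

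The genes whose profiles over the 6 libraries lay nearest to Lpl, by root mean square distance of centred log2 CPM, were Srrm4 (0.22), Cxcl15 (0.42) and Col3a1 (0.43). Srrm4, a neuronal splicing factor gene, was at 0.109 ± 0.087 CPM in WT and 7.71 ± 1.15 in KO. The chemokine gene Cxcl15 was at 7.85 ± 4.79 and 233.8 ± 56.95 CPM, and Col3a1, a fibrillar collagen gene, at 31.0 ± 12.3 and 1021 ± 193.8 CPM. Like Lpl, all 3 were lowest in WT replicate 2, a likeness that the choice by nearest profile favours. Nearest to Angptl4 were Fam213b (0.63), Sirpa (0.63) and Cyp1a1 (0.64). Fam213b had 694 to 916 counts in WT against 0, 0 and 4 in the KO libraries, the membrane receptor gene Sirpa 1130 to 1222 and 0, 11 and 3, and Cyp1a1, a target of the aryl hydrocarbon receptor, 779 to 2298 and 1, 2 and 9. These are descriptions over 6 libraries in 2 groups, and no test was made of them.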

How the data were processed

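RNA-seq read counts per gene were deposited by the authors, 1 library in each table, as raw counts. Alignment and counting tools listed in the submitters' processing notes are TopHat2 2.1.0 and HTSeq, with DESeq2 and the build GRCm38.p4. Annotation release, strand setting and read filters were not given in the sources used here. Per the labels' protocols, RNA came from TriZol LS and RNeasy and libraries from the TruSeq RNA Library Prep Kit v2. Of 46603 identifiers 46005 matched GENCODE M21 (GRCm38), the source of symbols, positions and exon lengths.

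Counts were filtered with filterByExpr by group, TMM-scaled and tested on all 6 libraries with edgeR 4.0.16 (quasi-likelihood F test, two-sided, group as the only term, Benjamini-Hochberg over 15009 genes) in R 4.3.3, after a check on simulated counts. Other settings tried were scaling by library totals, upper quartiles or RLE, the tools limma-voom (limma 3.58.1) and DESeq2 1.42.0, no filter or a minimum CPM of 1 in 3 libraries, a block on replicate number, and leaving out each library. The members and lists were chosen with earlier results of these data known. Named are all members, Actb, from each list the 2 called genes with the smallest p in each direction, and the 3 profiles nearest to Lpl and to Angptl4. Other genes named were chosen after their values were seen, and some genes of the lists are not reported here. Each library counted as a replicate. No pair of libraries agreed within sampling noise (chi-square per gene of 16.9 or more). Separate preparations from the same culture can also differ beyond that noise, so this does not show that the libraries are independent.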

Additional observations from a re-analysis of the deposited data

How the results depend on the processing

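Across 14 alternatives, the log2 fold changes of the 9 tested members kept their direction in all 126 values, and 119 kept their side of the threshold. Lpl ranged from 5.33 to 6.08, Angptl4 from -9.08 to -8.24, Lipe from -2.14 to -1.90 and Abhd5 from -0.80 to -0.54, each called throughout. The 2 members higher became 1 with limma-voom or the replicate block, 1 to 3 with 1 library left out, and the 3 lower were 3 to 4. Over all genes, 2074 were higher and 2181 lower. With library totals, which move the median of all genes by -0.20 log2, these were 1351 and 3347 (28.8% of calls higher in place of 48.7%), and the related genes lower were 27 in place of 16. With 1 library left out, related genes were 18 to 45 higher and 9 to 30 lower, and all genes 1003 to 3075 higher and 1295 to 3462 lower. Of the lists, lipase partners had 7 higher with no filter and 1 or 2 lower with upper-quartile scaling, DESeq2, no filter (1 each) or library totals (2). Other lipases had 1 lower with the CPM minimum or the block, control of lipolysis 1 lower with the CPM minimum, and glucocorticoid-induced genes 2 higher with limma-voom. Fits that leave out a library have fewer samples. The rank of Lpl was 7 in WT and 1 in KO with the longest transcript, and 8 to 9 in WT with 1 library left out. Its log2 ratio to Angptl4 differed by 14.11 to 15.16 between KO and WT in every variant. The variant with CPM in place of reads per kilobase could not change this difference, because the lengths cancel. Among 40 named genes, 31 of 557 values lost a call, 2 gained one and 0 reversed. The labels do not pair the libraries, and the KO and WT libraries that share a number had deviations that correlated at -0.103, 0.0475 and -0.151. WT replicate 1 correlated best with KO replicate 3 (0.17). With the replicate block 1446 genes were higher and 1599 lower, Cd36 was 2.45 log2 higher (adjusted p = 0.0894 in edgeR) and Pnpla3 had an adjusted p of 0.0529, neither called, and the receptor and glucocorticoid lists had 1 higher gene each. Depth limits Angptl4 in KO, Gpihbp1, Mgll and Cd36 in WT, where counts are few.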

Other observations

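Several genes of the pathway lay below the filter on low counts and have no test, and they are given here because their counts differed. Pcsk5, a proprotein convertase, went from 28, 5 and 15 counts in WT replicates 1, 2 and 3 to 0 in all KO libraries. Apoc1, an apolipoprotein that hinders lipoprotein lipase, went from 2, 1 and 1 counts in WT to 35, 11 and 34 in KO. The droplet protein gene Cidec was at 0 in all WT libraries and had 0, 3 and 45 counts in KO replicates 1, 2 and 3, so that its reads came mostly from a single library.

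The smooth muscle markers Acta2, Cnn1, Tagln, Smtn and Lmod1 rose in KO, 5 of 6 tested, with Myh11 not called at 18 to 34 counts in a library. Their summed level was 83.1 to 120.0 CPM in WT and 4576 to 12810 in KO, the same libraries in which Lpl rose. Of 6 skeletal muscle markers, which could accompany Lpl in muscle cells, 2 were tested and rose (Des and Tnnt3), while Myod1 had 0 to 3 counts and Myog 0 to 2 in a library. Whether these changes and that of Lpl are linked was not tested.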
